A study of Mus musculus with 12 samples.

Results

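Serine synthesis and folate one-carbon metabolism were followed through 10 enzymes, taken by gene symbol from both deposited tables of B16F10 cells, a mouse melanoma line. They are the 3 enzymes that make serine (Phgdh, Psat1 and Psph), 4 mitochondrial folate enzymes (Shmt2, Mthfd2, Mthfd1l and Aldh1l2), 2 cytosolic folate enzymes (Shmt1 and Mthfd1) and the proline enzyme Pycr1. These are 10 of the 55421 genes in the tables, and all 10 passed the filter on low values. RNA was measured by RNA-seq in 4 groups of 3 libraries each. The groups were Bub1KO cells given 8 Gy, vector control (VC) cells given 8 Gy, Bub1KO cells with no treatment and VC cells with no treatment. Bub1KO cells had the mitotic checkpoint kinase gene Bub1 disrupted with CRISPR-Cas9, and VC cells carried the vector alone. All groups share the parent line and the culture medium, DMEM with fetal bovine serum. The sources used here do not give the guide, the number of Bub1KO lines or clones, or the time from irradiation to RNA extraction. Whether a group's libraries are separate cultures is not stated, so p-values here reflect the spread between libraries, which may be technical. The comparisons address how loss of Bub1 changes the cells' response to radiation.

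Cells make serine from a glycolytic intermediate, phosphoglycerate, and pass one of its carbons to the folate carrier. In mitochondria that carbon is oxidised and released as formate. In the cytosol formate is reloaded on folate and used for purines, thymidylate and methyl groups. Several of the serine and mitochondrial enzymes are known targets of the transcription factor ATF4, which acts in the amino acid and integrated stress responses, and the mitochondrial enzyme Mthfd2 is known for being low in most adult tissues and high in tumours and embryos.

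The libraries held 19380726 to 33087366 reads in genes. Values are normalized counts, which the authors made by dividing reads by 1 size factor per library, so they show each gene's share of the RNA and not RNA per cell. In such bulk samples fewer cells of a kind and less RNA per cell cannot be told apart. Bub1 averaged 998 ± 117 in irradiated Bub1KO against 1484 ± 22.8 in irradiated VC, and 1662 ± 149 in unirradiated Bub1KO against 2932 ± 225.5 in unirradiated VC (SD, n = 3 each), so its RNA was lower but present in the cells labelled Bub1KO. The 7 pigment cell markers summed to between 386911 and 578932 per library, while Cd3e was at 0 in all libraries and Ptprc, Epcam, Cdh5, Kdr, Krt5, Krt14 and Dcn were at or near 0. The pigment sum was 555547 to 578932 in irradiated Bub1KO, 430616 to 445913 in irradiated VC, 542890 to 552089 in unirradiated Bub1KO and 386911 to 404327 in unirradiated VC. The 4 leukocyte markers summed to 269 to 287 in irradiated Bub1KO, 168 to 195 in irradiated VC and 27.1 to 30.7 in the unirradiated groups, nearly all of it Cd68 and Lyz2. The 4 fibroblast markers, mostly Col1a2 and Pdgfra, summed to 223 to 256 in irradiated Bub1KO, 325 to 334 in irradiated VC, 172 to 199.9 in unirradiated Bub1KO and 178 to 237 in unirradiated VC. The 4 epithelial markers, nearly all Cdh1, summed to 119.7 to 133 in irradiated Bub1KO, 74.0 to 101 in irradiated VC, 74.8 to 96.6 in unirradiated Bub1KO and 57.2 to 78.7 in unirradiated VC. The 3 endothelial markers summed to 2.58 to 13.1 over the 12 libraries. The part of these shifts in the results was not tested.

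Replicate 1 of unirradiated Bub1KO was unlike replicates 2 and 3. In it GC-rich genes lay lower against GC-poor ones (upper and lower quartiles of GC content), with a log2 gap of -0.70, where replicates 2 and 3 had 0.03 and 0.07. Phgdh and Shmt2, the members with the highest GC content (57.2% and 57.4%), differed in it from the mean of replicates 2 and 3 by -0.71 and -0.80 on the log2 scale. Psat1 and Aldh1l2, with 48.4% and 47.7% GC, differed by 0.14 each. Pycr1 (53.8%) differed by -0.62, Mthfd1 (52.6%) by -0.31, Mthfd1l (51.7%) by -0.11 and Shmt1 (49.2%) by -0.03. Psph and Mthfd2, both with 49.6%, differed by -0.43 and -0.13. The part of GC content in these differences was not tested. For each member the differences that use this library are given with and without it.

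Without irradiation, Bub1KO cells had more RNA of the serine phosphatase Psph, the mitochondrial folate enzymes Mthfd2 and Aldh1l2 and the proline enzyme Pycr1 than VC cells, by 1.74-fold to 2.04-fold. These were 4 of the 10 members, all higher, with limma-trend on log2(value + 1) and an adjusted p under 0.05, where 4.01% of all 14721 tested genes passed, 2.31% as higher. The cytosolic enzymes Shmt1 and Mthfd1 stood on the other side, at -0.09 and -0.22 on the log2 scale, and did not pass. The median log2 difference was 0.37 over the members and -0.01 over all tested genes. The 3 libraries of the groups did not overlap for 5 members that were higher and 2 that were lower in Bub1KO, where 25.6% of all tested genes did not overlap, 12.7% as higher and 12.9% as lower. Without replicate 1 of unirradiated Bub1KO, 6 members passed, all higher, with 2736 of 14721 genes passing in place of 591. The count of 4 was 2, 1 and 1 without VC replicates 1, 2 and 3, and 3 without Bub1KO replicate 2 or 3.

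After irradiation Bub1KO cells had less RNA than VC cells for 7 of the 10 members (Phgdh, Psat1, Shmt2, Mthfd2, Aldh1l2, Mthfd1 and Pycr1), and none was higher. In this comparison 30.7% of all tested genes passed, 16.4% as lower. These 7 stood at 0.708 to 0.862 of the VC level, and the median log2 difference was -0.28 over the members against -0.01 over all tested genes. For 8 members every irradiated Bub1KO library lay below every irradiated VC library, where 22.6% of all tested genes did so. The count of 7 was 2 when the fit took its spread from all 12 libraries, and 4 to 6 when 1 library was left out.

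**Figure D1:**
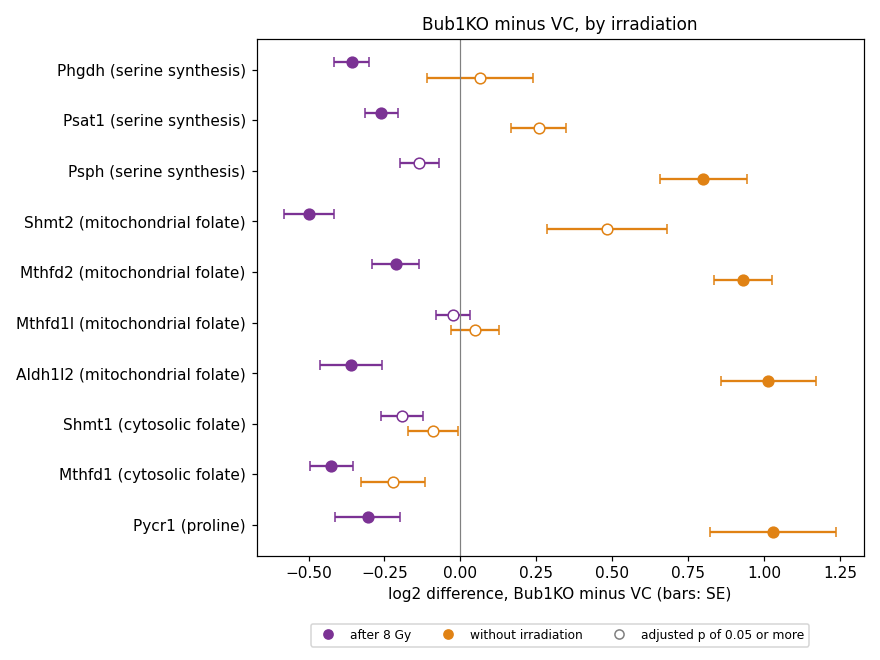
The log2 difference of Bub1KO minus VC on the horizontal axis for each enzyme, after 8 Gy (purple) and without irradiation (orange), with standard errors as bars and open points where the limma adjusted p was 0.05 or more. The orange points of Psph, Mthfd2, Aldh1l2 and Pycr1 lie between 0.80 and 1.03, while their purple points lie between -0.36 and -0.13.

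With irradiation most of the enzymes fell in Bub1KO cells, while in VC cells some fell and others rose. In Bub1KO cells 8 of 10 members fell and none rose, with 49.4% of all tested genes passing, 23.9% as lower, and Aldh1l2 and Pycr1 did not pass. In VC cells 4 fell (Psat1, Mthfd1l, Shmt1 and Mthfd1) and 2 rose (Aldh1l2 and Pycr1), with 53.4% of all tested genes passing, 27.6% as higher and 25.8% as lower. The share of members called in VC, 6 of 10, was near that of all genes. The counts of 8 in Bub1KO and of 2 and 4 in VC were the same with each library left out in turn.

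The change with irradiation differed between the genotypes for 5 members. The interaction is the genotype difference (Bub1KO minus VC) in irradiated cells less that in unirradiated cells. It was below 0 and passed for Psat1, Psph, Mthfd2, Aldh1l2 and Pycr1, where 0.550% of all 14721 tested genes passed, 0.414% with a negative value. The median was -0.73 over the members and 0.00076 over all tested genes. These comparisons share libraries, so their values are set side by side and are not independent of each other. Mthfd2 and Aldh1l2 passed in all 21 alternative fits. Psat1 lost its call in 11 of them, Psph in 9 and Pycr1 in 9, most with 1 library left out. Without replicate 1 of unirradiated Bub1KO, 7 members passed, with Phgdh at -0.66 (adjusted p = 0.000208) and Shmt2 at -1.25 (adjusted p = 4.27e-05) added by limma, and 1447 genes passed in place of 81. With each of the other 11 libraries left out, 2 to 5 members passed.

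**Figure D2:**
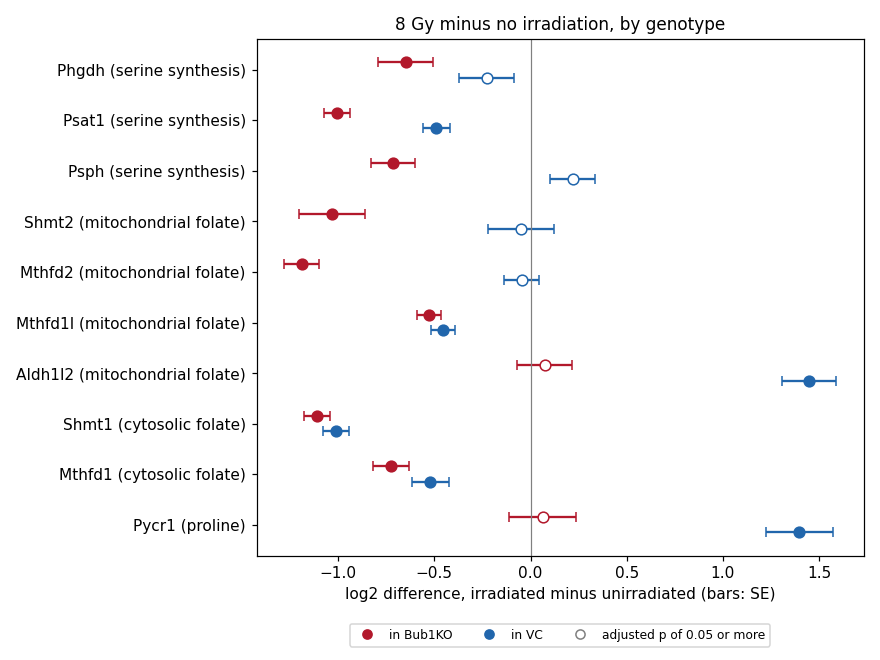
The log2 difference of irradiated minus unirradiated cells for each enzyme in Bub1KO (red) and VC (blue), with standard errors as bars and open points where the limma adjusted p was 0.05 or more. Mthfd2 lies at -1.19 in Bub1KO and -0.05 in VC, Aldh1l2 at 0.07 and 1.45, and Shmt1 at -1.11 and -1.01.

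Of the serine enzymes, Phgdh and Psat1 were among the most abundant members and Psph was not. Phgdh, the dehydrogenase that opens the pathway (chromosome 3, 98313170 to 98339990, minus strand of GRCm38), had 3789, 4089 and 4138 normalized counts in irradiated Bub1KO, against 5113, 5298 and 4987 in irradiated VC. All 3 irradiated Bub1KO libraries were below all 3 irradiated VC libraries, and the log2 difference was -0.36 ± 0.0565 (SE, limma adjusted p = 0.000486). Without treatment Phgdh had 4519, 7645 and 7166 in Bub1KO, against 6221, 5963 and 5839 in VC. The low first Bub1KO library put the VC values inside the Bub1KO range, and the difference did not pass, at 0.06 ± 0.176 (SE, limma adjusted p = 0.889). Without that library it was 0.30, with a limma adjusted p of 0.0123. Of 16 alternative fits it passed in this 1 alone, and not with the GC trend removed. With irradiation Phgdh fell in Bub1KO, at -0.65 ± 0.143 (SE, limma adjusted p = 0.00188) with replicate 1 of unirradiated Bub1KO and -0.89 without it (adjusted p = 1.42e-08), and in VC the difference was -0.23 ± 0.143 (SE, limma adjusted p = 0.197). The value in VC passed with a per-library trend on GC content removed, at -0.55 (limma adjusted p = 5.77e-06). The interaction for Phgdh did not pass, at -0.42 ± 0.202 (SE, limma adjusted p = 0.425). Of 21 alternative fits it passed in 1, without replicate 1 of unirradiated Bub1KO, at -0.66 (limma adjusted p = 0.000208).

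Psat1, the transaminase of the second step (chromosome 19, 15904678 to 15947337, minus strand), had 6673, 6452.5 and 6969.6 normalized counts in irradiated Bub1KO, against 7979, 7809.8 and 8286 in irradiated VC. It had 14366, 13648 and 12445 in unirradiated Bub1KO, against 10872, 11139.7 and 11799 in unirradiated VC. Bub1KO libraries lay above all VC libraries without irradiation and below all of them after it. The genotype difference passed after irradiation, at -0.26 ± 0.0542 (SE, limma adjusted p = 0.00301). It did not pass without irradiation, at 0.26 ± 0.0893 (SE, limma adjusted p = 0.158). Psat1 fell with irradiation to 0.497 of its level in Bub1KO and to 0.712 in VC, and the interaction was -0.52 ± 0.0975 (SE, limma adjusted p = 0.0295). That call was lost in 9 of 12 fits with 1 library left out, with adjusted p of 0.0542 to 0.114. The libraries were replicates 1 and 2 of unirradiated VC, replicate 2 of unirradiated Bub1KO and each of the 6 irradiated ones. Psat1 without unirradiated Bub1KO replicate 1 stood at 0.21 for genotype in unirradiated cells, -0.96 for irradiation in Bub1KO and -0.47 for the interaction (limma adjusted p = 0.068, 8.15e-09 and 0.0026).

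Psph, the phosphatase that releases serine (chromosome 5, 129765558 to 129787449, minus strand), had 1225, 1102 and 1174 normalized counts in irradiated Bub1KO, against 1245, 1315 and 1282 in irradiated VC. The counts were 1569, 2384 and 1879.7 in unirradiated Bub1KO, against 1159.6, 1071 and 1072 in unirradiated VC. Unirradiated Bub1KO stood above the other 3 groups, and its lowest library (1569) was above the highest irradiated VC library (1315). Psph was higher in unirradiated Bub1KO by 0.80 ± 0.143 (SE, limma adjusted p = 0.0165) and did not pass after irradiation, at -0.13 ± 0.0646 (SE, limma adjusted p = 0.133). The first call was lost without unirradiated VC replicate 1, 2 or 3 (limma adjusted p = 0.0726, 0.103 and 0.0777), with log2 differences of 0.78 to 0.84. In Bub1KO Psph fell with irradiation, at -0.72 ± 0.116 (SE, limma adjusted p = 0.000182). In VC it was 0.22 ± 0.116 (SE, limma adjusted p = 0.128). The interaction of -0.93 ± 0.164 (SE, limma adjusted p = 0.019) was lost without replicate 2 or 3 of unirradiated VC or without any of the 6 irradiated libraries, with adjusted p of 0.0515 to 0.0752. Psph without unirradiated Bub1KO replicate 1 stood at 0.94 for genotype in unirradiated cells, -0.86 for irradiation in Bub1KO and -1.08 for the interaction (limma adjusted p = 0.000175, 9.78e-07 and 7.27e-05).

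The exons of Psph share 452 bases, 10.4% of their length, with Cct6a on the other strand, and the strand setting of the counting is not given in the sources used here. Cct6a, a chaperonin subunit with a mean of 11836 normalized counts, was -0.12 ± 0.1 (SE, limma adjusted p = 0.564) in unirradiated Bub1KO minus VC and did not pass. Its own interaction did not pass either, at -0.06 ± 0.113 (SE, limma adjusted p = 0.894). With irradiation Cct6a fell in both genotypes, at -0.69 in Bub1KO and -0.63 in VC (limma adjusted p = 9.69e-06 and 1.99e-05). Psph stood at -0.72 and 0.22 there. After irradiation Cct6a was lower in Bub1KO than in VC, at -0.18 (limma adjusted p = 0.0283). Whether Cct6a reads enter the Psph values was not tested.

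Shmt2 takes a carbon from serine onto folate in mitochondria (chromosome 10, 127517123 to 127522444, minus strand). It had 4302, 4161 and 3813 normalized counts in irradiated Bub1KO, against 5408, 6691 and 5316 in irradiated VC. All irradiated Bub1KO libraries lay below all irradiated VC libraries, by -0.50 ± 0.0822 (SE, limma adjusted p = 0.000646) on the log2 scale. The counts were 5789, 10443 and 9658 in unirradiated Bub1KO, against 6390.4, 5397 and 6202 in unirradiated VC. Replicates 2 and 3 of Bub1KO were above every VC library and replicate 1 was within their range. The difference was 0.48 ± 0.198 (SE, limma adjusted p = 0.224), and without replicate 1 it was 0.75 (limma adjusted p = 0.000262). With irradiation Shmt2 fell in Bub1KO, at -1.03 ± 0.172 (SE, limma adjusted p = 0.000222) with replicate 1 of unirradiated Bub1KO and -1.30 without it (adjusted p = 2.97e-08). In VC the difference was -0.05 ± 0.172 (SE, limma adjusted p = 0.818), and it became -0.39 (limma adjusted p = 0.000545) with the GC trend removed. Its interaction of -0.98 ± 0.243 (SE, limma adjusted p = 0.108) did not pass. With the GC trend removed it was -0.89 and passed (limma adjusted p = 0.000441).

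Mthfd2, the mitochondrial dehydrogenase and cyclohydrolase of the folate-bound carbon (chromosome 6, 83305691 to 83325908, minus strand), had 4864, 3869.9 and 4108 normalized counts in irradiated Bub1KO, against 4856, 4789 and 5184 in irradiated VC. The values were 9159.8, 10930.2 and 9182 in unirradiated Bub1KO, against 5064, 4965 and 5267 in unirradiated VC. The 3 unirradiated Bub1KO libraries stood alone, and the other 9 libraries lay between 3869.9 and 5267. Mthfd2 averaged 9757 ± 1016 in unirradiated Bub1KO and 5099 ± 154 in unirradiated VC (SD, n = 3 each), a log2 difference of 0.93 ± 0.0953 (SE, limma adjusted p = 0.00114). This call held in all 16 alternative fits, with log2 differences of 0.85 to 0.98. With irradiation Mthfd2 fell in Bub1KO to 0.438 of its level, -1.19 ± 0.0912 (SE, limma adjusted p = 2.41e-07). In VC the change was -0.05 ± 0.0912 (SE, limma adjusted p = 0.696), and it did not pass in any of 16 alternative fits. The interaction was -1.15 ± 0.129 (SE, limma adjusted p = 0.00119). After irradiation Mthfd2 was just past the threshold as lower in Bub1KO, at -0.21 ± 0.0764 (SE, limma adjusted p = 0.0493), with overlapping libraries. That call was lost in 10 of 16 alternatives, among them 5 with 1 library left out. Adjusted p was 0.0936, 0.0551 and 0.141 without irradiated VC replicates 1, 2 and 3, and 0.219 and 0.123 without irradiated Bub1KO replicates 2 and 3 (limma). Mthfd2 without unirradiated Bub1KO replicate 1 stood at 0.97 for genotype in unirradiated cells, -1.23 for irradiation in Bub1KO and -1.19 for the interaction (limma adjusted p = 3.04e-05, 2.34e-08 and 3.5e-05).

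Mthfd1l, the synthetase that frees formate from the mitochondrial folate (chromosome 10, 3973118 to 4167081, plus strand), differed from the other mitochondrial members. It had 5597, 6179 and 6056 normalized counts in irradiated Bub1KO, against 6025, 5924 and 6191 in irradiated VC. There were 8131, 8818 and 8779 in unirradiated Bub1KO, against 8179.9, 8269.6 and 8417 in unirradiated VC. The genotypes overlapped in both conditions, and the irradiated libraries were all below the unirradiated ones. The genotype difference without irradiation was 0.05 ± 0.0801 (SE, limma adjusted p = 0.802). Mthfd1l fell with irradiation in both genotypes, at -0.53 ± 0.0627 (SE, limma adjusted p = 1.19e-05) in Bub1KO and -0.46 ± 0.0627 (SE, limma adjusted p = 4.32e-05) in VC, and the interaction of -0.07 ± 0.0887 (SE, limma adjusted p = 0.801) did not pass. Mthfd1l without unirradiated Bub1KO replicate 1 stood at 0.09 for genotype in unirradiated cells, -0.57 for irradiation in Bub1KO and -0.11 for the interaction (limma adjusted p = 0.378, 8.59e-07 and 0.419).

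Aldh1l2 burns the folate-bound formyl group to CO2 and yields NADPH in mitochondria (chromosome 10, 83487450 to 83534140, minus strand). It had 454, 397 and 536 normalized counts in irradiated Bub1KO, against 566, 632 and 573 in irradiated VC. The counts without treatment were 466, 509 and 351 in Bub1KO, against 235, 217 and 197 in VC. Unirradiated VC was the lowest group, with no overlap with any other, and irradiated VC the highest. Aldh1l2 rose with irradiation in VC by 1.45 ± 0.141 (SE, limma adjusted p = 2.04e-06), which is 2.73-fold. In Bub1KO, already at 442 ± 81.9 (SD, n = 3) without irradiation, the change was 0.07 ± 0.141 (SE, limma adjusted p = 0.695). Bub1KO was above VC without irradiation by 1.01 ± 0.157 (SE, limma adjusted p = 0.00884) and below it after irradiation, at -0.36 ± 0.103 (SE, limma adjusted p = 0.0178). The first call was lost without unirradiated VC replicate 2 or 3 (limma adjusted p = 0.0597 and 0.0528). The second was lost without irradiated VC replicate 2 or irradiated Bub1KO replicate 1 or 2 (limma adjusted p = 0.058, 0.0508 and 0.0882). The interaction of -1.37 ± 0.199 (SE, limma adjusted p = 0.0052) was the largest of the 10 members in size. Aldh1l2 without unirradiated Bub1KO replicate 1 stood at 0.97 for genotype in unirradiated cells, 0.12 for irradiation in Bub1KO and -1.33 for the interaction (limma adjusted p = 0.00235, 0.523 and 0.000781).

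The exons of Aldh1l2 share 1056 bases, 14.1% of their length, with D10Wsu102e on the other strand. D10Wsu102e averaged 1323 normalized counts over the 12 libraries. With irradiation it was -0.31 in Bub1KO and -0.39 in VC (limma adjusted p = 0.0128 and 0.00322). Aldh1l2 stood at 0.07 and 1.45 there. For Bub1KO minus VC, D10Wsu102e was -0.16 after irradiation and -0.23 without it (limma adjusted p = 0.141 and 0.271). Its interaction was 0.07 (limma adjusted p = 0.879). Whether D10Wsu102e reads enter the Aldh1l2 values was not tested. Shmt1 exons share 184 bases, 4.74% of their length, with Smcr8 on the other strand (mean 1690 normalized counts), likewise not tested.

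The cytosolic enzymes fell with irradiation in both genotypes. Shmt1, which passes serine's carbon to folate for thymidylate (chromosome 11, 60788104 to 60811718, minus strand), had 802, 804 and 883 normalized counts in irradiated Bub1KO, against 972, 957 and 913 in irradiated VC. It had 1765, 1778.5 and 1833 in unirradiated Bub1KO, against 1843, 1965 and 1922 in unirradiated VC. Every irradiated library lay below every unirradiated one, and in both conditions the Bub1KO libraries lay just below the VC ones. Shmt1 fell with irradiation to 0.463 of its level in Bub1KO and to 0.496 in VC. The log2 differences were -1.11 ± 0.0676 (SE, limma adjusted p = 3.49e-08) in Bub1KO and -1.01 ± 0.0676 (SE, limma adjusted p = 7.99e-08) in VC. The genotype difference was -0.19 ± 0.069 (SE, limma adjusted p = 0.0503) after irradiation and -0.09 ± 0.0821 (SE, limma adjusted p = 0.604) without it, and neither passed. The one after irradiation passed without irradiated Bub1KO replicate 3, at -0.24 (limma adjusted p = 0.0198). The interaction for Shmt1 did not pass, at -0.10 ± 0.0957 (SE, limma adjusted p = 0.736). Shmt1 without unirradiated Bub1KO replicate 1 stood at -0.08 for genotype in unirradiated cells, -1.12 for irradiation in Bub1KO and -0.11 for the interaction (limma adjusted p = 0.471, 3.7e-09 and 0.511).

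Mthfd1 reloads formate on folate in the cytosol (chromosome 12, 76255298 to 76319803, plus strand). It had 2765, 3136 and 3389.7 normalized counts in irradiated Bub1KO, against 4027, 4296 and 4112 in irradiated VC. The counts were 4421, 5274 and 5684 in unirradiated Bub1KO, against 5756, 6179 and 5909 in unirradiated VC. Bub1KO was the lower genotype in both conditions with no overlap, and passed after irradiation, at -0.42 ± 0.071 (SE, limma adjusted p = 0.000694), but not without it, at -0.22 ± 0.106 (SE, limma adjusted p = 0.295). With irradiation Mthfd1 fell in both, at -0.72 ± 0.0941 (SE, limma adjusted p = 2.68e-05) in Bub1KO and -0.52 ± 0.0941 (SE, limma adjusted p = 0.000399) in VC, and the interaction did not pass, at -0.20 ± 0.133 (SE, limma adjusted p = 0.579). Mthfd1 without unirradiated Bub1KO replicate 1 stood at -0.12 for genotype in unirradiated cells, -0.83 for irradiation in Bub1KO and -0.31 for the interaction (limma adjusted p = 0.261, 3.08e-07 and 0.075).

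Pycr1 makes proline in mitochondria and uses up reduced cofactor in doing so (chromosome 11, 120635712 to 120643769, minus strand). It was a low gene here, with 263, 202 and 228 normalized counts in irradiated Bub1KO, against 289, 279 and 285 in irradiated VC. It had 165, 304 and 213 in unirradiated Bub1KO, against 108, 106 and 108 in unirradiated VC. As with Aldh1l2, unirradiated VC was the lowest group and overlapped with no other. Pycr1 rose with irradiation in VC by 1.40 ± 0.174 (SE, limma adjusted p = 1.76e-05), which is 2.63-fold, and in Bub1KO the change was 0.06 ± 0.174 (SE, limma adjusted p = 0.787). Bub1KO was higher without irradiation, by 1.03 ± 0.208 (SE, limma adjusted p = 0.0283), and lower after it, at -0.31 ± 0.107 (SE, limma adjusted p = 0.0454). The call without irradiation was lost without unirradiated VC replicate 1, 2 or 3 (limma adjusted p = 0.12, 0.136 and 0.0957) or unirradiated Bub1KO replicate 2 or 3 (0.0656 and 0.07). The call after irradiation was lost without any 1 of the irradiated VC libraries or Bub1KO replicate 2 or 3, with limma adjusted p of 0.0744 to 0.194. The interaction of -1.33 ± 0.246 (SE, limma adjusted p = 0.0264) was lost without any 1 of the VC libraries of either condition or irradiated Bub1KO replicate 2 or 3, with adjusted p of 0.0676 to 0.0854. Pycr1 without unirradiated Bub1KO replicate 1 stood at 1.24 for genotype in unirradiated cells, -0.14 for irradiation in Bub1KO and -1.54 for the interaction (limma adjusted p = 0.000705, 0.421 and 0.000208).

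**Figure D3:**
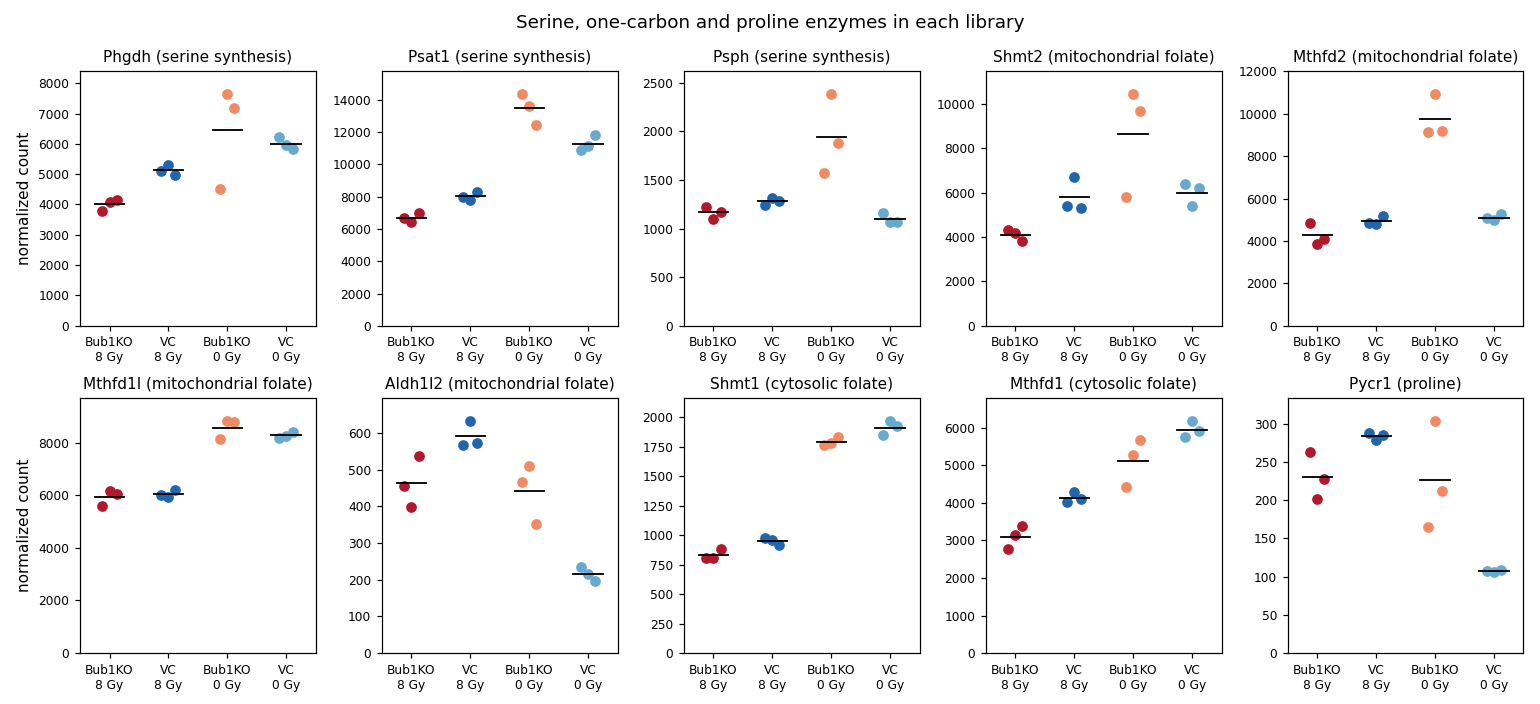
Normalized counts of each enzyme in each of the 12 libraries, with points for libraries, lines for group means and the vertical axis starting at 0. Unirradiated Bub1KO stands above the other groups for Mthfd2 (9160 to 10930.2) and Psph, unirradiated VC stands below them for Aldh1l2 (197 to 235) and Pycr1 (106 to 108), and both irradiated groups stand below the unirradiated ones for Shmt1, Mthfd1, Mthfd1l and Psat1.

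Per kilobase of exon, the members spanned a wide range of levels. In unirradiated VC the order was Psat1 (2649 normalized counts per kb), Phgdh (2417), Shmt2 (1929), Mthfd1l (1869), Mthfd2 (1462), Mthfd1 (1339), Shmt1 (492), Psph (254), Aldh1l2 (28.8) and Pycr1 (27.3). The libraries of Shmt2 and Mthfd1l overlapped on this scale, as did those of Aldh1l2 and Pycr1, while each other pair of neighbours in the order did not. In unirradiated Bub1KO Mthfd2 stood in the second place at 2798 per kb, after Psat1 at 3170.3, and its range overlapped with those of Psat1, Shmt2 and Phgdh. In irradiated Bub1KO the first 5 were Phgdh (1611), Psat1 (1575), Mthfd1l (1340.2), Shmt2 (1316) and Mthfd2 (1228). In irradiated VC they were Phgdh (2065), Psat1 (1886), Shmt2 (1867), Mthfd2 (1417.5) and Mthfd1l (1363). Phgdh overlapped with Psat1 in irradiated Bub1KO and not in irradiated VC, and Mthfd2 overlapped with Mthfd1l in both. Psph stood above Shmt1 in both irradiated groups without overlap, at 269.6 against 214 per kb in Bub1KO and 296 against 244 in VC, and below it in unirradiated VC.

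The balance of mitochondrial over cytosolic folate enzymes was lowest in unirradiated VC. For each library it was taken as the mean log2(value + 1) of Shmt2, Mthfd2, Mthfd1l and Aldh1l2 minus that of Shmt1 and Mthfd1, a description with no test. It was 0.86, 0.66 and 0.63 in irradiated Bub1KO, against 0.64, 0.71 and 0.70 in irradiated VC. It was 0.43, 0.64 and 0.33 in unirradiated Bub1KO, against -0.21, -0.40 and -0.31 in unirradiated VC. The 3 unirradiated VC libraries were the ones below 0, and irradiated Bub1KO overlapped with irradiated VC and with unirradiated Bub1KO. The values are not divided by exon length, so 0 does not mark equal levels. The highest unirradiated Bub1KO library lay just below the lowest irradiated VC library (0.636 and 0.637). Means were 0.71 ± 0.126 in irradiated Bub1KO, 0.68 ± 0.0382 in irradiated VC, 0.47 ± 0.155 in unirradiated Bub1KO and -0.31 ± 0.0954 in unirradiated VC (SD, n = 3 each). Bub1KO minus VC was therefore 0.03 after irradiation and 0.78 without it, and irradiated minus unirradiated was 0.25 in Bub1KO and 0.99 in VC.

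The parts of this balance differed. Without irradiation the genotype gap came with Mthfd2 (0.93 on the log2 scale) and Aldh1l2 (1.01) called as higher. Shmt2 (0.48), Mthfd1l (0.05), Shmt1 (-0.09) and Mthfd1 (-0.22) were not called but also enter the gap. With irradiation in VC the gap came with Aldh1l2 higher, Shmt1, Mthfd1 and Mthfd1l lower, and no call for Shmt2 or Mthfd2. The pair that does the same reaction in the separate compartments, Shmt2 over Shmt1, stood per kilobase at 6.19 ± 0.698 in irradiated Bub1KO, 7.65 ± 0.951 in irradiated VC, 6.0 ± 1.69 in unirradiated Bub1KO and 3.93 ± 0.458 in unirradiated VC (SD, n = 3 each). Replicate 1 of unirradiated Bub1KO had 4.10 and the other two 7.33 and 6.58, so that group overlapped with all others. Mthfd2 over Mthfd1 on the log2 scale was 0.47 ± 0.303 in irradiated Bub1KO, 0.25 ± 0.0898 in irradiated VC, 0.93 ± 0.207 in unirradiated Bub1KO and -0.22 ± 0.0814 in unirradiated VC (SD, n = 3 each). The Mthfd2 over Mthfd1 ratio is not divided by exon length. Per kilobase, Mthfd2 stood above Mthfd1 in unirradiated VC, at 1462 against 1339, with no overlap. The balance without Aldh1l2 was 0.582 for irradiated minus unirradiated in VC and 0.000735 in Bub1KO.

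**Figure D4:**
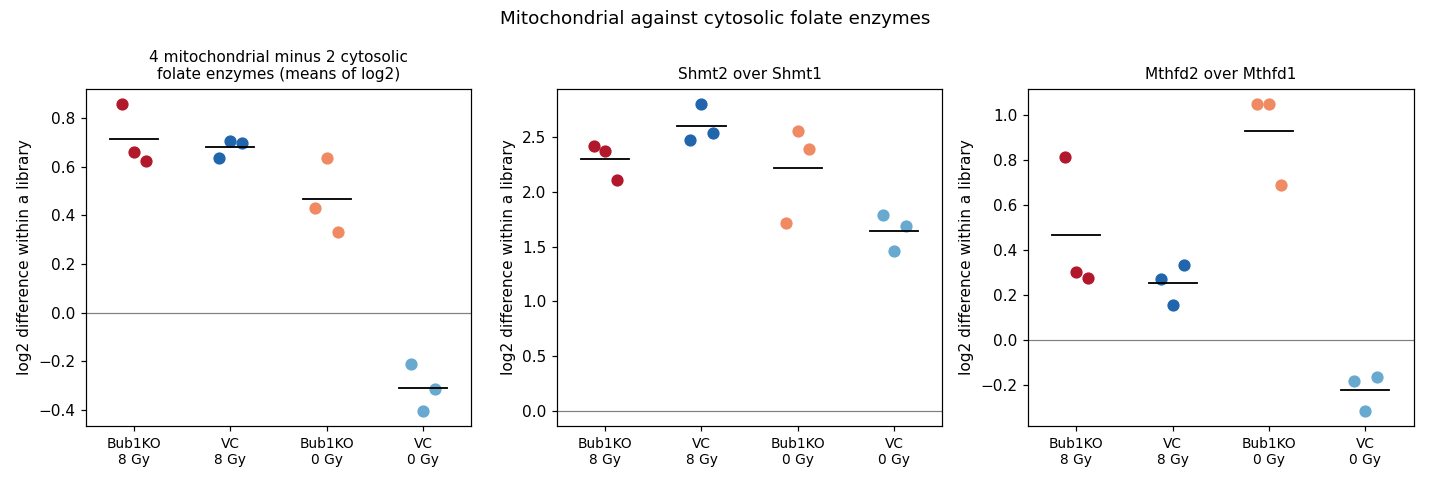
Differences on the log2 scale within each of the 12 libraries between the 4 mitochondrial and the 2 cytosolic folate enzymes (left), Shmt2 and Shmt1 (middle) and Mthfd2 and Mthfd1 (right), with lines for group means. Unirradiated VC is below 0 on the left (-0.40 to -0.21) and on the right (-0.32 to -0.17), and every other library is above 0 in all panels. Values here are not divided by exon length, so 0 does not mark equal levels.

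Other genes of the same pathways were read from a list of 40, of which 39 were in the tables and 36 passed the filter. Gldc (mean 0.25), Dmgdh (6.10) and Ftcd (0) did not, and the files hold Pycr3 under its older name Pycrl. Without irradiation 2 were higher in Bub1KO and 2 lower, with a median of -0.10, where 4.01% of all tested genes passed. Aldh18a1, which makes the precursor that Pycr1 reduces, was higher by 0.91 ± 0.114 (SE, limma adjusted p = 0.00341), and Amt, of the glycine cleavage system, by 0.78 ± 0.177 (SE, limma adjusted p = 0.0442). Cbs, which takes homocysteine out of the methyl cycle, was lower at -1.54 ± 0.307 (SE, limma adjusted p = 0.027), and Atic, of purine synthesis, at -0.46 ± 0.0833 (SE, limma adjusted p = 0.0179). Cbs was a low gene, with 4.07 to 6.58 normalized counts in unirradiated Bub1KO and 15.7 to 18.1 in unirradiated VC. Its call was also lost with DESeq2 (adjusted p = 0.0691). The calls of Amt, Cbs and Atic were lost without any 1 of the unirradiated VC libraries (adjusted p of 0.0692 to 0.195), without Bub1KO replicate 3 (0.173, 0.0789 and 0.0684 for Amt, Cbs and Atic) and, for Amt and Cbs, without Bub1KO replicate 2 (0.0828 and 0.0519, limma). After irradiation 1 was higher in Bub1KO (Amt) and 17 were lower, with a median of -0.19. In this comparison 30.7% of all tested genes passed, 16.4% as lower. The folate carrier Slc19a1 was at -0.64 ± 0.102 (SE, limma adjusted p = 0.000541), Pycrl at -0.62 ± 0.0752 (SE, limma adjusted p = 7.56e-05) and Prodh, which breaks proline down, at -0.57 ± 0.0767 (SE, limma adjusted p = 0.000154).

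With irradiation 4 of the 36 rose and 20 fell in Bub1KO, and 6 rose and 14 fell in VC. Of all tested genes 49.4% passed in Bub1KO, 23.9% as lower, and 53.4% in VC, 25.8% as lower. The share of the 36 called in VC was near that of all genes. Tyms, which makes thymidylate, fell in both, at -1.32 on the log2 scale in Bub1KO and -1.25 in VC. All 6 purine synthesis genes fell in Bub1KO and 5 of 6 in VC, with medians of -0.62 and -0.56. Cbs rose in both, by 2.73 in Bub1KO and 2.27 in VC, from low means of 5.30 and 17.1 normalized counts without irradiation. The interaction passed for Aldh18a1 and for no other of the 36, at -0.97 ± 0.127 (SE, limma adjusted p = 0.00255), where 1784 of the 14721 tested genes had an unadjusted p under 0.05 and 81 passed. Aldh18a1 had 3251, 3059 and 3181 normalized counts in irradiated Bub1KO, against 3317, 3389 and 3191 in irradiated VC, and 4826, 6551 and 5516 in unirradiated Bub1KO, against 2934, 3039 and 2972 in unirradiated VC. Its 3 unirradiated Bub1KO libraries stood above the other 9, as they did for Mthfd2.

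Genes known to control or accompany these enzymes were read beside them. Atf4 had 7619, 6401 and 6071 normalized counts in irradiated Bub1KO, against 6375, 5959.9 and 6455 in irradiated VC. It had 12661, 15659 and 14741 in unirradiated Bub1KO, against 7155, 7263 and 8125 in unirradiated VC. As with Mthfd2, the 3 unirradiated Bub1KO libraries were above the other 9. Without irradiation Atf4 was higher in Bub1KO by 0.93 ± 0.104 (SE, limma adjusted p = 0.00183), and after it the difference was 0.09 ± 0.0761 (SE, limma adjusted p = 0.397). The interaction for Atf4 was -0.84 ± 0.138 (SE, limma adjusted p = 0.0134), lost without irradiated VC replicate 1 or irradiated Bub1KO replicate 2 (limma adjusted p = 0.0556 and 0.0549). Asns, asparagine synthetase and a known ATF4 target, was higher without irradiation by 0.97 ± 0.0947 (SE, limma adjusted p = 0.000891) and had an interaction of -1.01 ± 0.104 (SE, limma adjusted p = 0.000754). Trib3, another gene of that response, was at -0.01 ± 0.148 (SE, limma adjusted p = 0.971) after irradiation and at 2.97 ± 0.257 (SE, limma adjusted p = 0.000517) without it. Ddit3 was at 0.17 ± 0.0924 (SE, limma adjusted p = 0.178) and 1.49 ± 0.215 (SE, limma adjusted p = 0.00645), and the second call was lost without unirradiated VC replicate 2 (limma adjusted p = 0.0558). Myc, a known activator of the serine and folate genes, was lower in Bub1KO in both conditions, at -0.76 ± 0.064 (SE, limma adjusted p = 4.18e-06) after irradiation and -0.50 ± 0.0903 (SE, limma adjusted p = 0.0173) without it. The second call was lost without any 1 of the unirradiated VC libraries or Bub1KO replicate 2, with limma adjusted p of 0.0632 to 0.115. Nfe2l2 did not pass in either (limma adjusted p = 0.226 and 0.923). With irradiation in Bub1KO, Atf4 (-1.10), Asns (-0.89), Trib3 (-1.20), Myc (-0.57) and Nfe2l2 (-0.29) fell and Ddit3 rose (0.63). In VC Ddit3 (1.94) and Trib3 (1.78) rose, Atf4 (-0.26), Myc (-0.32) and Nfe2l2 (-0.17) fell, and Asns did not pass (0.12). The VC calls of Atf4 and Nfe2l2 were lost without any 1 irradiated VC library. That of Ddit3 in Bub1KO was lost without irradiated Bub1KO replicate 1.

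The members fell into several patterns over the 12 libraries. By Pearson's r on log2 values, a description over libraries that share 4 groups, Mthfd1l went with Shmt1 (0.97), Aldh1l2 with Pycr1 (0.93), Phgdh with Shmt2 (0.91) and Psph with Mthfd2 (0.91), and Aldh1l2 was most unlike Shmt1 (-0.68). Among all tested genes, those most like Mthfd2 were Nars (0.98), Lars (0.97) and Atf4 (0.96), the first 2 of which charge tRNAs. Psph was most like Aldh18a1 (0.98) and Aars (0.97), another tRNA synthetase. For Pycr1 they were Atf3 (0.97), Amz1 (0.96) and Atf5 (0.95), and for Aldh1l2 Rhbdd1 (0.97). Shmt1 was most like the nuclear pore gene Nup107, the replicative polymerase gene Pole and the replication clamp gene Pcna (0.996 to 0.998). Genes among the 3 most like Mthfd1l were Tedc1 (0.99) and Gmnn (0.99), and Psat1 was most like Mia2 (0.99) and Sgo1 (0.98). Phgdh was most like Vars (0.97), Mthfd1 like Smo (0.99) and Shmt2 like Sumf2 (0.95).

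Promoter windows were read for the members as a description only. RefSeq windows of GRCm38.p6, 250 bases before to 50 bases after a start, matched 9 members by symbol with 10 windows, 2 of them for Psat1. They were searched on both strands for the C/EBP-ATF response element, written as TGATGNAAN and as TTGCATCA, and for the E-box CACGTG. TTGCATCA was in 0.895% of all 32851 windows, TGATGNAAN in 3.95% and CACGTG in 7.15%. Read on the other strand, TTGCATCA is TGATGCAA, a case of TGATGNAAN, so a match to it is also a match to the longer form. Of the 10 member windows, the one of Pycr1 held 1 such match, 103 bases before the start, and none held CACGTG. The 250 bases before the start are shown for Pycr1, which holds the element (capitals), and for Mthfd2, which holds none of the 3 in its window. They lie at chr11:120643749-120643998 and chr6:83317605-83317854, both on the minus strand, and the RefSeq start used for Mthfd2 is inside the GENCODE gene span given above.
Pycr1: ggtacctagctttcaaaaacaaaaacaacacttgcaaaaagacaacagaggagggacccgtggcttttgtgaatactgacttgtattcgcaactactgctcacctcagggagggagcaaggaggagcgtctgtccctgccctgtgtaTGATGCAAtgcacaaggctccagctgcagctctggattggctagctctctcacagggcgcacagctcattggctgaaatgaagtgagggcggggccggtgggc
Mthfd2: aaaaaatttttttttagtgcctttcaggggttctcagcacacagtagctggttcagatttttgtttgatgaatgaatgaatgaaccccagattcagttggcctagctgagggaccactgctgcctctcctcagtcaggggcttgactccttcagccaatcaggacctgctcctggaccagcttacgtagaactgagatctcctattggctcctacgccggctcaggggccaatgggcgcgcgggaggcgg
A match is a description of the letters, and its absence says that these letters are not in this window.

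The authors' deposited table of their own comparison gave an adjusted p under 0.05 for 3 of the 10 members after irradiation, where 18.1% of all genes with an adjusted p there passed, and for 6 without it, where 13.1% passed. The 3 after it were Psat1, Shmt2 and Mthfd1, and without irradiation the authors' deposited table added Psat1 and Shmt2 to the 4 passing here.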

How the data were processed

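Messenger and other long RNA was measured in 12 libraries, made with a stranded total RNA kit after ribosomal RNA removal, per the labels' protocols. Trim Galore, cutadapt, STAR, SAMtools and HTSeq are the tools, and GRCm38.p6 (mm10) the build, that the submitters' processing notes name. The sources used here do not give versions, the annotation release, the strand setting or how multiply mapped reads were treated. The authors deposited, in 2 tables, a signal per gene and library, which is a read count divided by 1 size factor per library. The mean column is identical in both, and all 12 libraries were taken as normalized together. A log2 fold change by the authors (VC over Bub1KO), a test score and p-values stand in the deposited tables too.

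Whole reads were recovered for 100% of values (tolerance 0.01 of a read). The size factors ran from 0.775 to 1.41. Depth limits precision most for Pycr1 and Aldh1l2, with 82 to 406 and 156 to 796 reads per library. Positions and exon lengths are from GENCODE M21 (GRCm38, 1-based), which matched 54673 of 55421 genes.

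The tables hold normalized values, so limma-trend was run (limma 3.58.1, R 4.3.3) on log2(value + 1). A gene entered with a value of 10 or more in 3 or more of 12 libraries, which 14721 did, with Benjamini-Hochberg adjustment over these genes and a threshold of 0.05. This scale understates low genes' changes. Genotype comparisons used the 6 libraries concerned, and irradiation and the interaction were fitted on all 12. Alternatives were pseudocounts of 0.5 and 5, no filter, other libraries in the fit, TMM scaling, edgeR 4.0.16 and DESeq2 1.42.0 on recovered reads, each library left out, a replicate block and a GC trend removed. Only the main limma fit of each comparison was run on simulated counts. These had no GC shift, so they do not cover a library like replicate 1 of unirradiated Bub1KO.

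The members, the other pathway genes and the rules were chosen with earlier results of these data known. Named are all 10 members, Bub1, 6 regulators or companions, and of each other list up to 4 called genes with the smallest adjusted p in a comparison. For each member up to 3 genes with the highest Pearson r are named. Some genes that these rules name are not reported here.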

Additional observations from a re-analysis of the deposited data

Results flagged for a closer look

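The difference between Bub1KO and VC after irradiation was set against the same difference without it, and the test of that change passed (limma, over 14721 genes and 12 libraries) for 5 members. Mthfd2 changed by -1.15 on the log2 scale. Its genotype difference was -0.21 after irradiation and 0.93 without it. Aldh1l2 changed by -1.37 and Pycr1 by -1.33, both with Bub1KO above VC without irradiation and below it after. Psph changed by -0.935 and Psat1 by -0.518. Limma adjusted p was 0.00119 for Mthfd2, 0.0052 for Aldh1l2, 0.019 for Psph, 0.0264 for Pycr1 and 0.0295 for Psat1.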

How the results depend on the processing

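Over 123 single-gene results and their alternatives, 1858 values kept direction and side of the threshold, 153 lost a call, 22 gained one and 10 changed sign. Each sign change was of a difference that did not pass, and leaving out 1 library gave these ranges. Phgdh without irradiation ran from -0.0777 to 0.301 (also -0.0311, below 0 without Bub1KO replicate 2 or 3). Shmt2 with irradiation in VC ran from -0.158 to 0.0084 (above 0 without irradiated replicate 3). Mthfd1l after irradiation ran from -0.0544 to 0.017 (above 0 without Bub1KO replicate 1). With irradiation in Bub1KO, Aldh1l2 ran from -0.085 to 0.183 (-0.085 and -0.039 without replicate 3 of the unirradiated or irradiated group). Pycr1 there ran from -0.145 to 0.295 (-0.145 and -0.0344 without replicate 1 of either group), and gave -0.0769 with the GC trend removed, with or without the replicate block.

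Genes called between genotypes without irradiation numbered 591 of 14721, against 329 of 30265 with no filter. They numbered 1769 with all 12 libraries in the fit, 1657 with the GC trend removed and 172 to 2736 with 1 library left out. The highest was without Bub1KO replicate 1 and the lowest without VC replicate 2. After irradiation they numbered 4512, against 2062 of 30265 with no filter, 2105 with all 12 libraries and 3045 to 4744 with 1 left out. For the interaction they numbered 81, against 283 with DESeq2, 395 with the GC trend removed and 33 to 1447 with 1 left out, the highest without unirradiated Bub1KO replicate 1. The cause was not tested. Counts for irradiation in VC (7861) and in Bub1KO (7269) stayed within 1.5 times. With no filter, 1 member was higher without irradiation and 2 were lower after it. Of all 30265 genes tested there, 181 were higher without irradiation and 953 lower after it. With the GC trend removed, 6 members were higher without irradiation and 9 lower after it. Of all 14721 genes, 851 were then higher without irradiation and 2622 lower after it.

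The labels give replicate numbers but do not say what libraries of 1 number share, so the numbers were not taken as pairs. Same-numbered libraries of different groups deviated together with r from -0.193 to 0.196 over 18 pairs. For differently numbered libraries of different groups r ran from -0.242 to 0.209. With the replicate block 312 genes passed without irradiation and 47 for the interaction, and with the block and the GC trend removed 1224 and 268. The calls of Pycr1 without irradiation (adjusted p = 0.0524, limma) and of Psat1, Psph and Pycr1 for the interaction (0.0867, 0.0545 and 0.0757) were lost under the block.

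The mitochondrial minus cytosolic balance rested on its members. Bub1KO minus VC without irradiation (0.776) was 0.966 without Mthfd1l and 0.644 without Aldh1l2. After irradiation (0.0339) it was -0.049 without Mthfd1l, 0.15 without Shmt1 and -0.0826 without Mthfd1, and from -0.0381 to 0.0784 with 1 library left out, below 0 without Bub1KO replicate 1. Irradiated minus unirradiated in VC (0.99) was 1.08 without Shmt2 or Mthfd2, 1.22 without Mthfd1l, 0.582 without Aldh1l2, 0.745 without Shmt1 and 1.23 without Mthfd1. In Bub1KO (0.248) it was 0.422 without Mthfd2, 0.000735 without Aldh1l2, 0.0543 without Shmt1 and 0.442 without Mthfd1.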
